A study of Mus musculus with 2 samples.

Results

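Collagen genes outside the cartilage core were taken as the protein-coding genes on mouse chromosomes 1 to 19 whose symbol has the form Col, a number, a and a number, without Col2a1, Col9a1 and Col11a2. The GENCODE annotation of mm10 gave 39 such genes among 20722 protein-coding genes on these chromosomes. They comprised 9 fibrillar genes, 4 genes of type IV and 26 genes of other types. Open chromatin was mapped by DNase-seq, which reads the ends left by the enzyme DNase I where it can reach the DNA, in limb tissue of healthy mouse embryos at 11.5 days of development. The labels give 1 group, strain B6NCrl with male and female embryos pooled, in 2 biological replicates. No other condition was measured, so the main counts stand beside the same counts over all protein-coding genes.

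Collagens are matrix proteins of 3 chains that wind around each other in a helix. Fibrillar collagens assemble into the cable-like fibrils of mesenchyme, skin, tendon and bone. Type IV collagens form the sheet of basement membranes, and the remaining types decorate fibrils, form beaded filaments or short networks, or span the cell membrane. In the early limb bud most cells are mesenchyme under a cover of ectoderm, and cartilage is only starting to condense.

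A peak is a deposited interval of 150 bp, called in each library on its own. Its signal is the authors' value, a whole number from 2 to 150 (for some peaks written with a decimal point and 0) with no stated scaling, so signals are also given as a percentile within their own list. Overlapping peaks of both libraries were merged into shared peaks. A peak was a promoter peak of a gene where its centre was at most 1 kb from a start of that gene. It was a body peak if it lay inside the gene and over 1 kb from every start of a protein-coding transcript. It was a distal peak of the gene whose start was nearest, if over 1 kb and up to 500 kb away, so most body peaks were also distal. The nearest start is a label by position and does not show which gene a region acts on. In tissue that mixes cell types, fewer cells of a type and less accessible DNA per cell cannot be told apart.

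The 200 bases before the RefSeq start are printed first for the fibrillar genes Col11a1, Col1a2 and Col3a1, whose starts were open although their promoters hold few CpG dinucleotides, and then for Col17a1 and Col10a1, whose starts had no shared peak. They are from RefSeq (GRCm38, the assembly of mm10), 5′ to 3′ on the strand of the gene. Capitals mark matches, on either strand, to any of 14 short words known as sites of regulators. The word CCAAT is known as a site of NF-Y and is written ATTGG where it stands on the other strand. The GC box is the word GGGCGG, or CCGCCC where it stands on the other strand. The word TATAAA, the TATA box, places the start in some promoters. Further words in these windows are CATTCC, known from TEAD factors, and CATCTG, a TWIST-like E-box written CAGATG on the other strand. The word TGTGGT is known from RUNX factors, AACAAT from SOX factors and TAATTA from many homeodomain factors. The other words were those of ETS, AP-1, NFI, GLI and CTCF and the E-box CAGCTG. Matches of different words may share letters.
Col11a1, chr3:114030340-114030539, plus strand: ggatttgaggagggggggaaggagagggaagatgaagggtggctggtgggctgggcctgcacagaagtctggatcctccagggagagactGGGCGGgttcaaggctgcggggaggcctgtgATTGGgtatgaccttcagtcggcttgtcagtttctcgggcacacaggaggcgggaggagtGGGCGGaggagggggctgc
Col1a2, chr6:4505418-4505617, plus strand: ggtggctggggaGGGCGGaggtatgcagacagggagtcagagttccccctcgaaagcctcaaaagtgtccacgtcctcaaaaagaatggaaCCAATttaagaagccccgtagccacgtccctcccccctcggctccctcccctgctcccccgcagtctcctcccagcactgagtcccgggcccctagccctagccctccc
Col3a1, chr1:45311338-45311537, plus strand: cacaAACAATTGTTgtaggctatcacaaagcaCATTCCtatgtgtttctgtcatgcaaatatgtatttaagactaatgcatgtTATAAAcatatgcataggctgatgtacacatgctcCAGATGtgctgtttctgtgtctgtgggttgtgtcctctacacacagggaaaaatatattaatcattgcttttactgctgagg
Col17a1, chr19:47692043-47692242, minus strand: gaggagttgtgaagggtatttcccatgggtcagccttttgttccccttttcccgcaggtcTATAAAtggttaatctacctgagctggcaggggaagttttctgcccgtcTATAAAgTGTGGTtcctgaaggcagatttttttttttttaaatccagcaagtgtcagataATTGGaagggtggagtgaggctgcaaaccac
Col10a1, chr10:34389781-34389980, plus strand: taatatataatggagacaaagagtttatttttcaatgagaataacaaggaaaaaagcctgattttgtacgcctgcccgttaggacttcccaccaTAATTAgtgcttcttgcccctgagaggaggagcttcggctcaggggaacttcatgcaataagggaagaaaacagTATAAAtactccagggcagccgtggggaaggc
The Col11a1 window held a pair of GC boxes around a CCAAT word, and the Col1a2 window held a GC box and a CCAAT word. The Col3a1 window held a TATA box and neither GC box nor CCAAT. A match describes the letters only and is not a bound site.

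All 9 fibrillar genes had a shared peak at a start. Over the 39 collagen genes 29 had a shared promoter peak, or 74.4% (Wilson 95% interval 58.9 to 85.4%), against 68.1% of all protein-coding genes, which lies within that interval. In the libraries taken singly 31 collagen genes in replicate 1 and 32 in replicate 2 had a promoter peak, against 69.7% and 70.1% of all genes. By class, 9 of 9 fibrillar, 3 of 4 type IV and 17 of 26 other genes had a shared one. Intervals cover counting error over genes only and take genes as independent, although Col4a1 and Col4a2 had 3 promoter peaks in common. With 1 group no test between conditions was possible.

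Away from promoters the collagen genes held many peaks. A shared body peak was found in 34 collagen genes (87.2%), against 47.3% of all genes, and a distal one in 38 (97.4%), against 67.0% of all genes. The median was 6 body and 6 distal shared peaks for collagen genes, and 0 and 2 for all genes. Collagen genes are long, with a median of 114.4 kb against 17.6 kb for all genes, and the sequence nearest to their starts had a median of 151.8 kb against 44.8 kb. Among genes of 100 to 200 kb, the 18 collagen genes had a median of 7.5 body peaks and all 1413 genes of that length had 6. Among genes of 200 to 500 kb the medians were 15 for 6 collagen genes and 12 for all 733 genes. Sorted by the length of nearest sequence, the distal median was 7 in collagen genes and 6 in all genes at 100 to 200 kb, and 12 in both at 200 to 500 kb. At under 50 kb it was 3 in collagen genes and 0 in all genes, and at 50 to 100 kb it was 5.5 and 2. At 500 kb or more, with 2 collagen genes, it was 14.5 and 17. The share with a shared promoter peak was below that of all genes of like length at 10 to 50 kb (66.7% of 12 collagen genes against 75.1%) and at 100 to 200 kb (72.2% of 18 against 89.7%). It was above it at 50 to 100 kb (100% of 2 against 86.6%) and at 200 to 500 kb (100% of 6 against 91.1%).

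**Figure D1:**
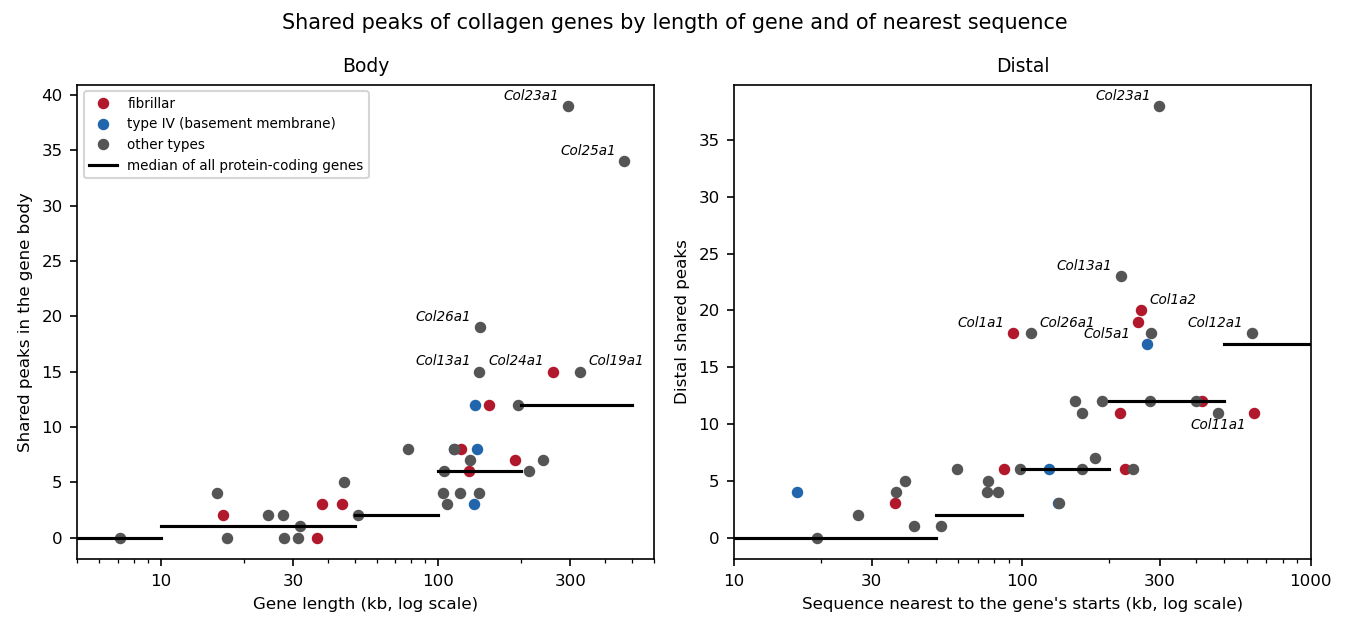
Shared peaks in the gene body against gene length (left) and distal shared peaks against the length of sequence nearest to the gene's starts (right), both on log axes, with 1 point per collagen gene and black lines for the median of all protein-coding genes in each length class (no line is drawn over 500 kb on the left). Col23a1, with 39 body and 38 distal peaks, stands highest in both panels, and the other points lie on both sides of the lines.

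In all, 498 shared peaks belonged to collagen genes, 19 of them to 2 or more members. There were 62 promoter, 294 body and 381 distal peaks, and 223 of the distal peaks lay inside the gene's own body. Of the body peaks, 71 were nearer to a start of another gene. Of the body peaks 276 (93.9%) lay in introns of the reference transcript, against 84.3% of the body peaks of all genes. Its exons held 3.1% against 7.1%, and the remaining body peaks lay in neither. Intron 1 held 15.3% against 24.5%, intron 2 held 21.8% against 12.8%, and later introns held 56.8% against 47.0%. These shares were not tested, and they were not matched for gene length or number of introns. They pool the peaks of all genes, and Col23a1 and Col25a1 alone held 38 and 32 intronic peaks, with 1 and 0 in intron 1. Genes differed, and intron 1 held 5 of the 8 intronic peaks of Col4a1 and all 3 of Col3a1. Distal peaks 10 to 50 kb from the start made up 41.5% in collagen genes against 35.3% in all genes, and those 100 to 500 kb away made up 18.9% against 24.1%.

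The libraries gave similar peaks at collagen genes. Replicate 1 held 693 and replicate 2 held 685 peaks that belonged to a collagen gene. Of these 72.7% (Wilson 95% interval 69.3 to 75.9%) and 73.7% (70.3 to 76.9%) overlapped a peak of the other library, against 69.9% and 73.2% of all autosomal peaks. Across the 498 shared peaks the Spearman correlation of signal between replicates was 0.90, against 0.91 over all 115658 autosomal shared peaks. This is across regions, which are not independent replicates. The depth of either library is unknown, since the lists hold no read counts.

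**Figure D2:**
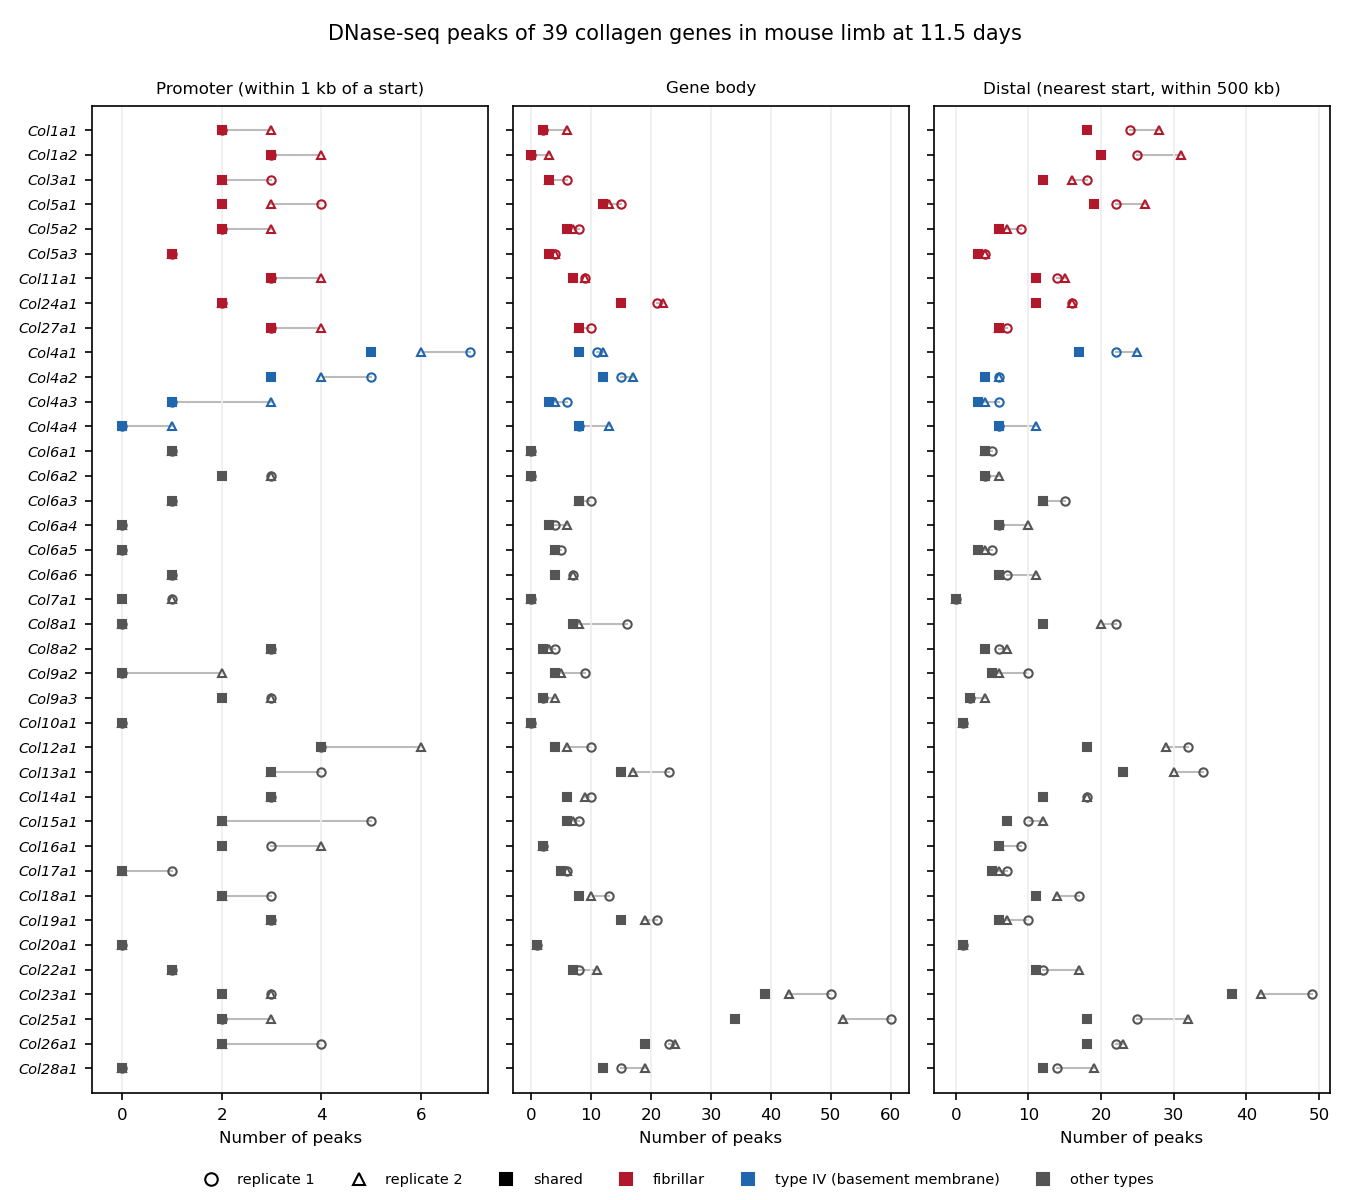
Number of promoter, body and distal peaks of each of the 39 collagen genes in replicate 1 (open circles), in replicate 2 (open triangles) and shared by both (filled squares), coloured by class, with a grey line joining the replicates. The 9 fibrillar genes all have a shared promoter peak, and Col23a1 and Col25a1 carry the most body peaks, with 39 and 34 shared.

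Col11a1 had the strongest promoter peak of any collagen gene. Col11a1, a chain of the thin fibrils of cartilage and other tissues, had a signal of 122 in both libraries (percentiles 98.3 and 98.0) at chr3:114030356-114030525, 100 bp before its start. That peak covers most of the printed window, with its first GC box and its CCAAT word. The chain partner genes Col2a1 and Col11a2, left out by the rule, had 2 and 0 shared promoter peaks. Col11a2 had 3 promoter peaks in replicate 2, of up to 39, and none in replicate 1. Around Col11a1 the other peaks were weak, with a median signal of 33 in replicate 1 and 29 in replicate 2 over 11 shared peaks outside promoters.

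Type I collagen, the main protein of tendon, bone and skin, is made of 2 chains from Col1a1 and 1 from Col1a2. Col1a1 (chr11) had 2 shared promoter peaks. The one at its start gave 52 and 50 in replicates 1 and 2, and the one 886 bp downstream, in intron 1, gave 111 and 110. The intronic peak thus lay at a mean percentile of 95.6, above the start peak at 62.0, in both libraries. Col1a2 (chr6) gave 95 and 111 at its start, a mean percentile of 93.3, in a peak that overlaps the printed window, and 89 and 72 at a peak in intron 1.

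Both type I genes, which are short among collagen genes, had fewer shared body peaks than the collagen median of 6, and long upstream rows of peaks. At 10 to 50 kb the median of body peaks was 2 in collagen genes and 1 in all protein-coding genes. Col1a1 had 2 shared body peaks, or 11.9 per 100 kb, from 2 in replicate 1 and 6 in replicate 2. Col1a1, a gene of 16.8 kb, had 24 and 28 distal peaks in the libraries (26 ± 2.8, SD, n = 2), of which 18 were shared. The strongest of all collagen peaks outside promoters lay 7214 bp before its start, at chr11:94928936-94929085, with signals of 123 and 118. A further 10 shared peaks lay 53 to 70 kb upstream, with signals of 35 to 109 in replicate 1 and 32 to 110 in replicate 2. Col1a2 had 25 and 31 distal peaks (28 ± 4.2, SD, n = 2), of which 20 were shared, and no shared peak in its body, where replicate 1 had 0 and replicate 2 had 3. Between 46 and 50 kb upstream it had 7 shared peaks, the strongest of them with 109 and 112 at chr6:4457656-4457845.

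An enhancer that drives the mouse Col1a2 gene in fibroblasts is known in the far upstream region. From 13 to 20 kb upstream each library held 4 peaks, and all 4 were shared, centred 16933, 16403, 15953 and 15423 bp before the start. The nearer pair was the stronger. The peak at 15953 bp gave 97 in replicate 1 and 89 in replicate 2, and that at 15423 bp gave 99 and 80. The peaks at 16933 bp and 16403 bp gave 59 and 48, and 53 and 36. The strongest upstream peaks of both type I genes and the pair at the known enhancer are printed from the plus strand of the genome (GRCm38), with words in capitals as above, the E-box CAGCTG among them.
Col1a1, chr11:94928936-94929085: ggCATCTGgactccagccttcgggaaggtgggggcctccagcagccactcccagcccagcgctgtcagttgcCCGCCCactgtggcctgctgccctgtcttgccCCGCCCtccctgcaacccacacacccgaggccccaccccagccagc
Col1a2, chr6:4457656-4457845: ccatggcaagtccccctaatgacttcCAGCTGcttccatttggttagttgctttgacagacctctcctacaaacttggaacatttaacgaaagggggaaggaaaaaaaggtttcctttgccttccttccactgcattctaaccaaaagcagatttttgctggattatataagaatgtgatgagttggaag
Col1a2, chr6:4489456-4489625: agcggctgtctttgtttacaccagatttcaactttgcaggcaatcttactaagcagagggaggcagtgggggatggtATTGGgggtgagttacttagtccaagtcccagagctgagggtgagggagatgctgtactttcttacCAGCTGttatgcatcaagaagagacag
Col1a2, chr6:4489976-4490165: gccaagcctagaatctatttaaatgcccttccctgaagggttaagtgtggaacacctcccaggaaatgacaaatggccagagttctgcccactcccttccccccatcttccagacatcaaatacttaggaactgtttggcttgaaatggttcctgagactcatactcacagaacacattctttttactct
The Col1a1 peak, a GC-rich stretch (71.3% GC), held a pair of GC boxes and a TWIST-like E-box. The 3 Col1a2 peaks were of 42.1 to 48.8% GC. An E-box stood in the peak 47743 bp upstream and in the one at 15953 bp, and the peak at 15423 bp held none of the words.

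Types III and V build fibrils together with type I. Col3a1, whose product is abundant in soft and elastic tissues, gave 79 and 88 at its start (chr1:45311556-45311725), just downstream of the printed window. Its RefSeq promoter window had 37.7% GC and no CpG. Its body held 3 shared peaks, all in intron 1, the strongest with 90 and 60 at 2552 bp downstream. Col5a1, whose product starts fibril assembly, gave 101 and 121 at its start and had 12 body and 19 distal shared peaks. The strongest of these lay in intron 4 with 95 and 99 (chr2:27932116-27932265). Col5a2 gave 87 and 70 at its start and had 6 body peaks. Col5a3 gave 52 and 52, the weakest strongest-promoter signal among the fibrillar genes, and had 3 body peaks. Col3a1 and Col5a2 lie tail to tail with 24614 bp between them and had 2 shared peaks in common, both away from promoters.

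Col24a1 and Col27a1 encode later-described fibrillar chains. Col24a1 gave 72 and 78 at its start and had 15 shared body peaks, mostly weak, with a median signal outside promoters of 44 and 33. Col27a1, known for a role in growth plate cartilage, gave 80 and 92 and had 8 body peaks, the strongest with 91 in both libraries 1405 bp before its reference start. That strongest peak covers the first annotated base of the gene, chr4:63214004. No protein-coding transcript starts there, so the peak was not counted as a promoter peak. The fibrillar promoter peaks had a median percentile of 81.5, against 72.2 over the promoter peaks of all 39 collagen genes and 83.4 over those of all genes. Fibrillar body peaks had a median percentile of 51.9, against 58.3 over all genes.

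**Figure D3:**
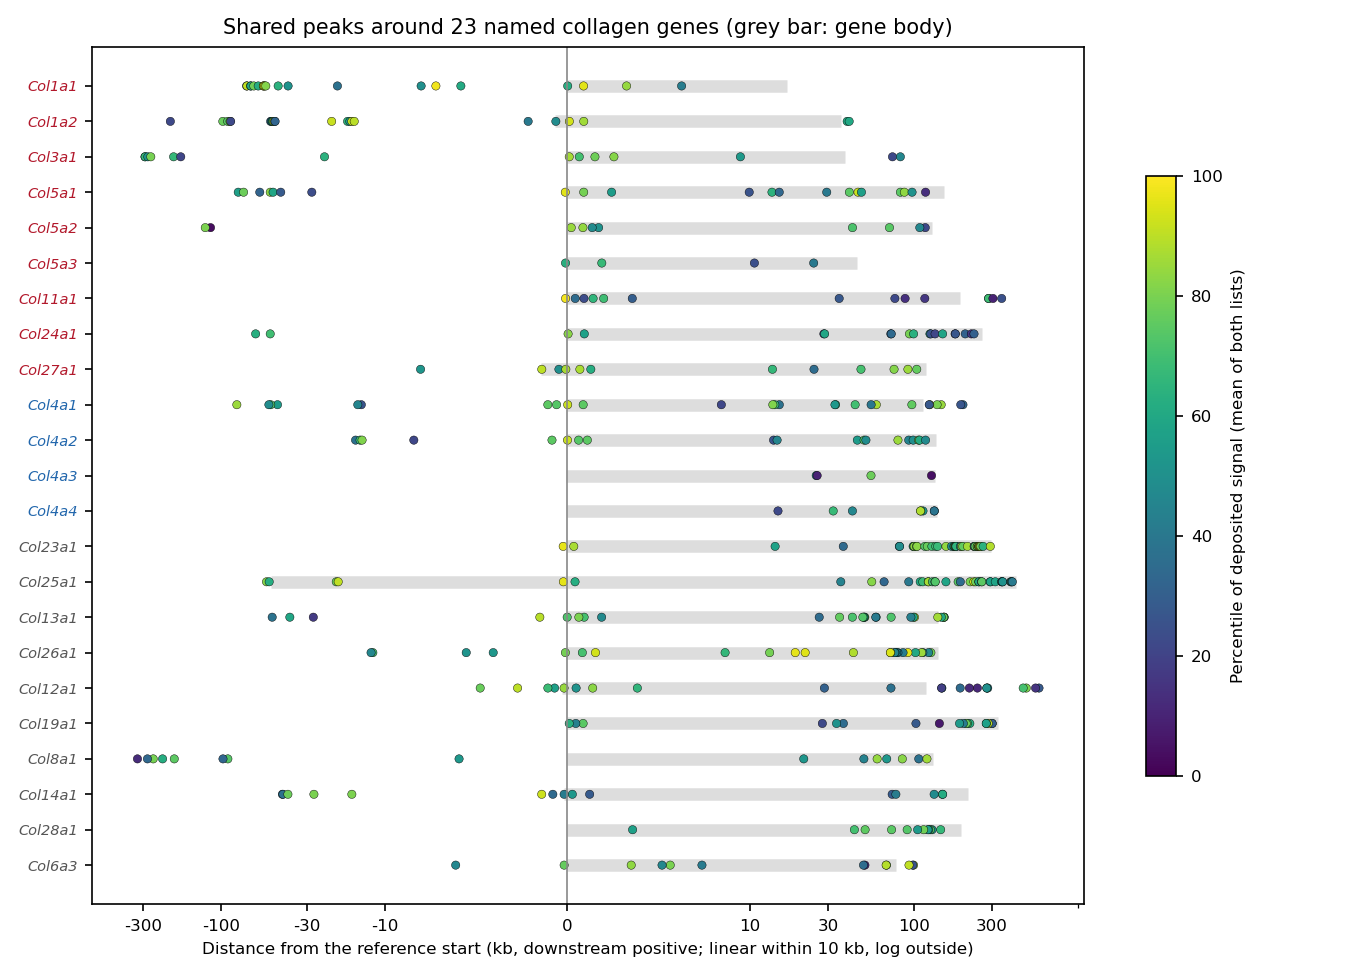
Position of each shared peak relative to the reference start of 23 named collagen genes (red names fibrillar, blue type IV, grey other), with distance in kb, linear within 10 kb and logarithmic beyond, grey bars for gene bodies and colour for the mean percentile of signal. Col1a1 and Col1a2 show rows of peaks far upstream, whereas the peaks of Col23a1, Col25a1 and Col28a1 lie mainly inside the gene.

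The type IV genes differed by pair. Col4a1 and Col4a2 encode the chains of the basement membrane network found in nearly all tissues and are read in opposite directions from starts 21 bp apart. Both starts lay under 1 shared peak with 94 and 99 (chr8:11312736-11312885, mean percentile 91.8), and the genes had 14 shared peaks in common, 3 of them promoter peaks. Col4a1 had 8 body and 17 distal peaks and Col4a2 had 12 and 4. Since the starts nearly coincide, the split of distal peaks between them rests in part on which start was nearer. It also rests on further starts of Col4a1, which has 3. Its distal peak at chr8:11187636-11187785 lay 23121 bp from the nearest of these and 125116 bp from the reference start. The strongest outside promoters gave 94 and 83 at chr8:11187636-11187785 for Col4a1, and 87 and 71 in intron 4 for Col4a2.

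Col4a3 and Col4a4, known from the filter of the kidney and from Alport syndrome, are likewise read away from each other, from starts 127 bp apart. No shared peak lay at these starts. Replicate 2 had a peak there with a signal of 27 (percentile 25.5), and replicate 1 had none. The sole shared promoter peak of Col4a3 gave 23 and 18, at a minor start in coding exon 48, some 128334 bp downstream of the reference start. Inside the genes, Col4a4 had 8 body peaks, the strongest in intron 37 with 86 in both libraries, and Col4a3 had 3, the strongest in intron 2 with 71 and 64. The 71 bases between the annotated genes, given on the strand of Col4a4, held none of the words.
Between Col4a4 and Col4a3, chr1:82586850-82586920, minus strand: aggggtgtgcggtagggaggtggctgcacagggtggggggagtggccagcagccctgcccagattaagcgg

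Collagen promoters were divided by base composition, and the CpG-rich ones more often had a peak, as was so over all genes. The RefSeq promoter table (GRCm38; 250 bases before to 50 after the start) matched 31 of the 39 genes. Col1a1, Col4a3, Col5a2, Col9a3, Col12a1, Col14a1, Col22a1 and Col26a1 were not matched. An observed over expected CpG ratio of 0.6 or more was found in 10 of the 31 (32.3%), against 54.9% of 14296 matched genes, and the median ratio was 0.44 against 0.65. A shared peak at the reference start, which is the start of the principal transcript, was found for 65.4% of all protein-coding genes. All 10 CpG-rich collagen promoters had one, against 97.4% of CpG-rich promoters of all genes. Of the 21 CpG-poor ones 10 had such a peak (47.6%), against 39.6%.

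Several CpG-poor promoters had a shared peak at the reference start, among them those of 4 fibrillar genes and of the classical type VI chains. Not all were strong, since the median signal over the promoter peaks of all genes was 77 in replicate 1 and 76 in replicate 2. That median counts every promoter peak, while the signals given here are those of the strongest shared promoter peak of each gene. Col11a1 had a ratio of 0.33, Col1a2 of 0.47, Col24a1 of 0.27 and Col3a1 of 0. Col6a2 had 0.25 with signals of 93 and 109, Col6a1 had 0.13 with 66 and 70, and Col6a3 had 0.14 with 73 and 59. All 7 matched fibrillar genes had a peak at the reference start, while 3 of them were CpG-rich. The 11 matched genes without one had ratios of 0 to 0.54. Col18a1 was among them, since its strong peaks (102 and 99) lay at a start 51945 bp before the reference start.

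**Figure D4:**
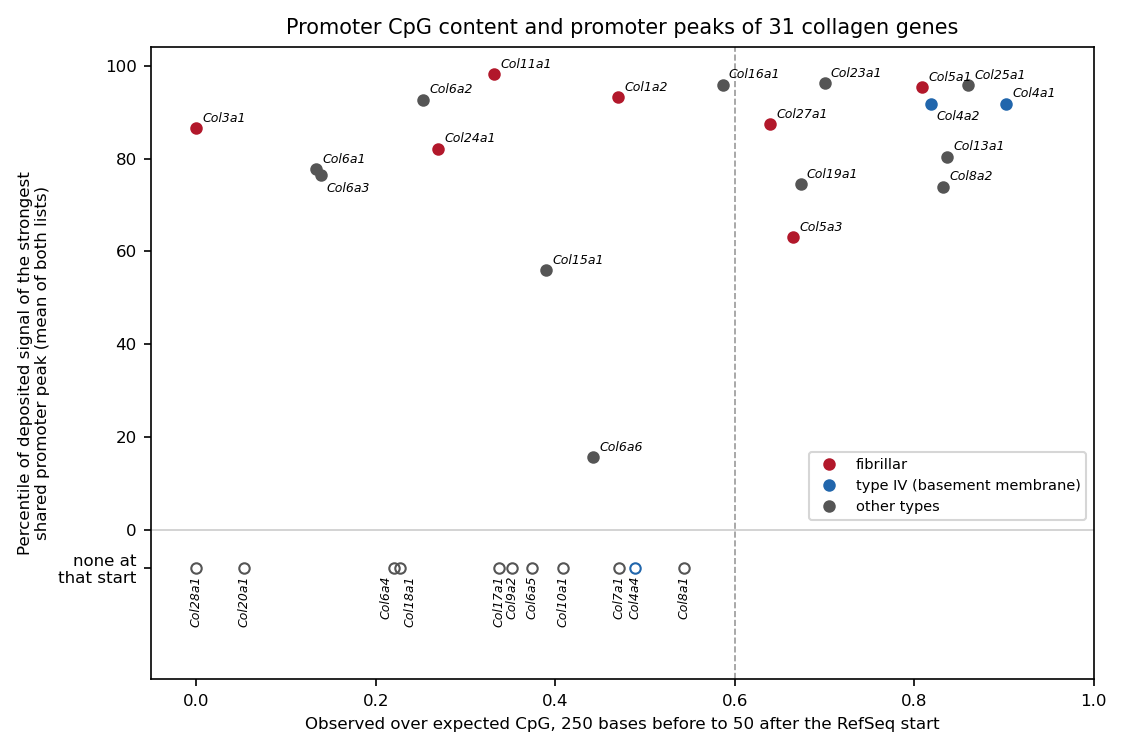
Observed over expected CpG of the RefSeq promoter window against the percentile of the strongest shared promoter peak (mean of both lists) for 31 collagen genes, with open symbols below for genes without a shared peak at the reference start and a dashed line at a ratio of 0.6. All 10 genes right of the line have a peak, and left of it peaks range from Col6a6, at a percentile of 15.8, to Col11a1 at 98.1.

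The words were counted in the promoter windows of the 31 matched collagen genes and of all matched genes. CCAAT was found in 10 of 31 windows (32.3%), against 38.1% of all windows, and GGGCGG in 18 (58.1%), against 52.4%. TATAAA was found in 4 (12.9%) against 11.4%, and the ETS word CCGGAAGT in 0 of 31 against 6.13%. In 436 body and distal shared peaks of collagen genes the AP-1 word TGANTCA was present in 32 (7.34%), against 4.56% of 86211 such peaks of all genes. The E-box CAGCTG was present in 79 (18.1%) against 16.7%, and the CTCF consensus in 30 (6.88%) against 7.34%. The TWIST-like E-box was present in 90 (20.6%) against 20%, and CCAAT in 85 (19.5%) against 19.2%. For the RUNX word it was 52 (11.9%) against 11.9%, and for the GC box 28 (6.42%) against 7.35%. Body and distal peaks were searched in their central 150 bp. These shares were not tested.

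Type VI collagen forms beaded filaments around cells. Its classical chains Col6a1, Col6a2 and Col6a3 all had shared promoter peaks, with the signals given above. Col6a3, the longest chain of the classical trimer, had 8 body and 12 distal peaks, the strongest with 93 in replicate 1 and 89 in replicate 2. Col6a1 had no body peak but 4 distal ones, all strong, with 88 to 97 in replicate 1 and 80 to 96 in replicate 2. The later-described chains differed. Col6a4 and Col6a5 had no promoter peak in either library, and Col6a6 had 1 of 20 and 29, below the median signal of each list, 47 and 39. All 3 held 3 or 4 shared body peaks, against a median of 6 over all genes of 100 to 200 kb, their length class.

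The transmembrane collagens Col13a1, Col17a1, Col23a1 and Col25a1 had the highest median of body peaks among the structural groups with more than 2 genes, 24.5. Col23a1 had the most shared body peaks of the collagen genes, though Col25a1 had more in each library. Col23a1 had 50 and 43 body peaks in replicates 1 and 2 (46.5 ± 4.9, SD, n = 2), 39 of them shared, or 13.3 per 100 kb, against a median of 5.8 over collagen genes and 3.0 over all genes of at least 10 kb. Col9a2 (25.1) and Col26a1 (13.4) had more per 100 kb. Its promoter gave 112 and 115 (chr11:51289616-51289765). Its strongest intronic peak, in intron 5 of the reference transcript, gave 115 and 109 (chr11:51543576-51543765). Col25a1, the longest collagen gene at 468.4 kb, had 60 and 52 body peaks (56 ± 5.7, SD, n = 2), 34 of them shared, and a promoter of 112 and 111. Col13a1, found at muscle attachments and nerve-muscle junctions, had 15 body and 23 distal peaks and a promoter of 70 and 74.

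Col17a1 stood apart from that group at its promoter. It encodes a collagen of hemidesmosomes, the anchors of basal epidermal cells. Replicate 1 had a promoter peak of 26 (percentile 6.41), 484 bp downstream of the start, and replicate 2 had none. Its body held 5 shared peaks, with a median signal of 37 and 32. Col7a1, which forms the anchoring fibrils under the epidermis, had 1 promoter peak of 36 in each library, centred 356 bp before the start in replicate 1 and 56 bp before it in replicate 2. These did not overlap, so Col7a1 had no shared peak of any kind. Among markers of surface ectoderm, Trp63, Epcam and Krt5 had shared promoter peaks while Krt14 and Krt8 had none. The share of ectoderm in the tissue was not tested as a part in these values.

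The fibril-associated collagens, which sit on the surface of fibrils, were mixed. Col12a1 had 4 promoter peaks, the strongest with 87 and 70, and 18 shared distal peaks over 625.0 kb of nearest sequence. Col14a1 had 3 promoter peaks, the strongest with 43 and 48, 6 body and 12 distal peaks. Col19a1 had 3 promoter peaks, up to 69 and 58, and 15 body peaks. Col16a1 had 1 of the 3 strongest promoter peaks among collagen genes, with 110 and 114 (chr4:130047716-130047885). Col22a1 gave 81 and 89. Col20a1 had no promoter peak in either library and 1 shared body peak.

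Type IX collagen coats cartilage fibrils, and its genes did not look alike. Col9a3 had 2 shared promoter peaks, the strongest with 42 and 58. Col9a2 had promoter peaks in replicate 2 only, with 44 and 42, and none in replicate 1. Further downstream Col9a2 had 4 shared body peaks in a gene of 15.9 kb. The strongest, 1755 bp from the start in intron 2, gave 77 and 71, and the next, at 2195 bp in the same intron, gave 64 and 64. The partner gene Col9a1, left out by the rule, had 1 shared promoter peak of 80 and 73 and 20 distal peaks. That promoter peak lay at another start, and neither library had a peak within 1 kb of the reference start.

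Short-chain and further types completed the set. Col10a1, made by hypertrophic chondrocytes that form only later in the skeleton, had no promoter or body peak in either library and 1 distal shared peak, of 38 and 33. Col8a1 also had no promoter peak in either library, and it had 7 body and 12 distal shared peaks. These are near the medians of all genes of its classes, 6 body peaks at 100 to 200 kb and 12 distal peaks at 200 to 500 kb of nearest sequence. Col8a2, the other type VIII gene, had 3 promoter peaks of up to 63 in both libraries. Col28a1 had no promoter peak in either library and 12 body peaks, with a median signal of 59.5 and 51.5. Col26a1 had a promoter of 75 and 64 and 19 body peaks in 141.5 kb. The multiplexins Col15a1 and Col18a1, of the zone between basement membrane and stroma, gave 48 and 45 and, at the upstream start, 102 and 99.

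Col26a1 held 2 of the 5 strongest collagen peaks outside promoters, printed here from the plus strand with words in capitals as above, together with the strongest intronic peak of Col5a1.
Col26a1 intron 1, chr5:136864076-136864245: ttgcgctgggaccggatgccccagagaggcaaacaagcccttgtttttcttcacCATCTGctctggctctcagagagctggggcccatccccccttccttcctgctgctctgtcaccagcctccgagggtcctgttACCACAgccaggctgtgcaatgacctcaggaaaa
Col26a1 intron 3, chr5:136790996-136791145: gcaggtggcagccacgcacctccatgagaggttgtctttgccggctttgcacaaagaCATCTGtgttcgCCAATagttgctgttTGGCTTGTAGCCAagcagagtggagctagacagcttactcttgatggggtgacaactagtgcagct
Col5a1 intron 4, chr2:27932116-27932265: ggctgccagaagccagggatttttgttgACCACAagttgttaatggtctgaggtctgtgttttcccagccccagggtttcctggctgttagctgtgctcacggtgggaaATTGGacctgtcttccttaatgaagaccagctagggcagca
The intron 1 peak gave 111 and 112 in replicates 1 and 2, and the intron 3 peak gave 114 and 106. Both Col26a1 peaks held a TWIST-like E-box, and the Col5a1 peak held RUNX and CCAAT words. The intron 3 peak also held a CCAAT word and the NFI word. Such words were about as common over all genes. The TWIST-like E-box stood in 20.6% of body and distal collagen peaks and in 20% of such peaks of all genes. For CCAAT the shares were 19.5% and 19.2%, for the RUNX word 11.9% and 11.9%, and for the NFI word 0.917% and 1.14%.

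Genes that modify, fold, export, cleave, crosslink and bind collagen were counted beside the chain genes. Of 39 such genes 38 had a shared promoter peak (97.4%), against 68.1% of all genes. All 17 genes of chain modification and folding had one, among them Serpinh1, the collagen chaperone, and the prolyl and lysyl hydroxylase genes P4ha1 and Plod2. Their median was 2 shared body peaks at a median length of 34.2 kb, against 6 at 114.4 kb for the chain genes. Per 100 kb, over genes of at least 10 kb, the medians were close, 5.4 for these genes and 5.8 for the chain genes. Itga11, a collagen receptor of fibroblasts, had 18 body and 20 distal shared peaks, and Itga1 had 21 distal ones. Loxl2, which encodes a crosslinking enzyme, was the exception, with no peak of any kind in either library. It lay in a stretch of chromosome 14 of 455.4 kb that held no peak in either library. Whether peaks could be called in that stretch was not tested, so the 0 at Loxl2 is not read as closed chromatin.

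Marker genes were read for the labelled tissue. Shared promoter peaks were found at 7 of 7 limb mesenchyme and 4 of 4 prechondrogenic markers, against 1 of 5 of endothelium, 3 of 5 of surface ectoderm, 1 of 4 of muscle precursors, 1 of 5 of red cells, 1 of 4 of white blood cells, 3 of 4 of neurons and 0 of 3 of liver. Over all protein-coding genes the share was 68.1%, near the shares of the ectoderm and neuron lists. The part of each cell type in the collagen values was not tested.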

How the data were processed

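Peaks and broader hotspots were deposited for each library, called on that library's own filtered mm10 alignment and not on pooled reads, per the labels and deposited file descriptions. Which aligner or caller was used is not given in the sources used here, and neither is named. The peak signal deposited by the authors has no stated scaling and was used only within a list. Hotspots carry a −log10 q value, per the deposited file descriptions, and entered 1 alternative. For replicate 2 the labels list 2 sequencer models, and for replicate 1 they list none. Replicates 1 and 2 held 174611 and 167550 peaks.

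Genes and starts were those of protein-coding transcripts in GENCODE release M21, and promoter windows were those of RefSeq. Overlap meant at least 1 bp. Steps were tested on simulated data. Python 3.11.15, NumPy 2.4.6, pandas 2.3.3, SciPy 1.17.1, pysam 0.24.0 and Matplotlib 3.10.9 were used. No test between groups was possible with 1 group. The members, gene lists and words were chosen with earlier results of these data known. Genes named with values were all fibrillar and type IV genes, those without a shared promoter peak, the 10 others with most body and distal peaks, and further ones named after their values were seen. Named peaks were the 3 strongest promoter and 5 strongest other peaks, and the strongest of each fibrillar and type IV gene. The alternatives varied the overlap, the signal needed, peaks with a decimal in their signal, the promoter window, the reach, the starts, the kind of region and the class of types VII, XV and XVIII, and left out each replicate.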

Additional observations from a re-analysis of the deposited data

How the results depend on the processing

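No paired analysis was possible because the labels give 1 group. All 9 fibrillar genes kept a promoter peak under every alternative run. Counts of collagen genes with a shared peak ranged over these alternatives, apart from single libraries, from 25 to 30 for promoters, 33 to 35 for bodies and 35 to 39 for distal peaks. With only peaks above the median signal of their library, the total was 280, the median of body peaks was 2 over all collagen genes, 2 over fibrillar, 4 over type IV and 2 over other genes, the median of distal peaks was 6 over fibrillar and 2.5 over type IV genes, and 94.1% of peaks were found in both libraries. With an overlap of 75 bp 66.3% were. With a reach of 100 kb the fibrillar distal median was 6. With types VII, XV and XVIII counted as basement membrane, 5 of the 7 genes of that class had a promoter peak, against 3 of 4 for type IV alone. In the central 150 bp of 45 promoter peaks the words stood in 17.8% (NF-Y), 37.8% (GC box), 4.44% (TATA box), 6.67% (E-box), 4.44% (TEAD) and 0% (homeodomain). Over the promoter peaks of all genes these shares were 21.6%, 41.9%, 2.54%, 9.97%, 6.39% and 1.09%. The TWIST-like E-box stood in 11.1% and the AP-1 word in 4.44% (2 of 45), against 7.01% and 2.25% over all genes. The promoter windows of the 31 matched genes are longer than 150 bp, so the shares are not of like stretches. Those windows held the TEAD word in 9.68%, the TWIST-like E-box in 6.45% and the AP-1 word in 3.23% (1 of 31). Without the peaks with a decimal in their signal the total was 492.

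Leaving out a replicate counts the peaks of the other alone, with no overlap needed, so the values are higher by construction. Without replicate 1 or 2, genes with a promoter peak numbered 31 to 32, with a body peak 34 to 35 and with a distal peak 38 to 38, the total was 685 to 693, and the medians were 7 to 8 for body and 10 to 11 for distal peaks. Fibrillar genes gave 9 to 9 with a promoter peak and medians of 7 to 8 and 16 to 16, type IV genes 3 to 4, 9.5 to 12.5 and 6 to 8.5, and other genes 19 to 19, 6.5 to 8 and 10 to 10.5. The use of 1 reference start per gene was chosen after seeing the data and moved no count by over 1.5 times. Depth is unknown, so a peak missing from a list may lie below what that library could show.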
